A study of Homo sapiens with 63 samples.

Results

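The 10 genes described here encode carriers that bring neutral and cationic amino acids across the plasma membrane: SLC7A5, SLC3A2, SLC1A4, SLC1A5, SLC7A1, SLC7A3, SLC38A1, SLC38A2, SLC6A9 and SLC7A6. They were chosen by gene symbol, and all 10 of the 58336 genes in the deposited table were found by their Ensembl identifiers. RNA came from HEK293T, an established line of human embryonic kidney origin, made to express Halo, a protein tag that binds its ligands covalently. Cells were given a Halo-targeted precursor of the acyl glucuronide of either drug, Ht-Pre-AG-ibufenac in some arms and Ht-Pre-AG-ibuprofen in others, at 10 µM for 2 h, washed, and lit for 3 min at 365 nm and 5 mW/cm2 so that the acyl glucuronide was released. Ibufenac is a close relative of ibuprofen that lacks its α-methyl group.

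The 63 libraries form 7 arms: ibufenac probe, ibuprofen probe, ibufenac photocaged, ibuprofen photocaged, ibufenac bolus, ibuprofen bolus and DMSO. Each arm has 3 replicates at each of 6 h, 12 h and 18 h, so there are 21 groups. What sets the probe arms apart from the photocaged arms, which arms were lit and what dose the bolus arms received are not in the labels. Nothing says that replicates came from separate cultures, so the p-values measure only the spread between these libraries, which may be technical. All arms used the same Halo-expressing line, a model with forced expression of the tag.

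Amino acid carriers of the SLC families work as exchangers or as sodium-driven importers. SLC7A5 (LAT1) and SLC3A2 (CD98 heavy chain) form a heterodimer that exchanges glutamine for leucine and other large neutral amino acids, and SLC1A5 (ASCT2) supplies glutamine. SLC38A1 and SLC38A2 (SNAT1 and SNAT2) import glutamine, alanine and other small neutral amino acids with sodium, SLC1A4 (ASCT1) exchanges alanine, serine and cysteine, and SLC6A9 (GlyT1) imports glycine. SLC7A1 and SLC7A3 (CAT-1 and CAT-3) carry arginine and lysine, and SLC7A6 (y+LAT2) pairs with SLC3A2 to exchange arginine for neutral amino acids. Many of these genes are known targets of ATF4, the transcription factor that is made when amino acid shortage or other stress leads to phosphorylation of eIF2α.

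ATF4 binds with C/EBP proteins to composite sites of the form TGATGNAA, so the start sites of the members were searched for these letters on both strands. RefSeq windows of 300 bases (250 before to 50 after each start, GRCh38.p14) existed for 9 members, all but SLC7A3, with 15 windows in all. A match was found for 5 of the 9 members, whereas 4.46% of the 27305 genes in the table held one. By window, 5 of the 15 member windows held a match, whereas 3.62% of all 35116 windows did. Several spellings of the motif were tried, and the members were chosen with earlier results known, so these shares are a description. Each match is shown with its surrounding bases, 30 in all and 5′ to 3′ on the strand of the gene, with the motif in capitals (TTNCATCA is the same motif read on the other strand). The matching stretch of ASNS, asparagine synthetase, whose ATF4 site is well known, is shown for comparison.
SLC3A2: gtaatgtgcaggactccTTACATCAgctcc
SLC1A4: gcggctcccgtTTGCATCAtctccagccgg
SLC1A5: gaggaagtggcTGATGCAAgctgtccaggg
SLC7A1: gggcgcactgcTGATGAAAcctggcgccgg
SLC38A1: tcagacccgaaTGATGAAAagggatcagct
ASNS: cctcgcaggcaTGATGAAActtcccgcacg
The stretches lie at chr11:62881719-62881748 (plus strand, SLC3A2), chr2:64989381-64989410 (plus, SLC1A4), chr19:46784893-46784922 (minus, SLC1A5), chr13:29595663-29595692 (minus, SLC7A1), chr12:46266502-46266531 (minus, SLC38A1) and chr7:97872458-97872487 (minus, ASNS). Counted from each start as base 1, with no base 0, the motif ran from -7 to 1 in SLC1A4, from -4 to 4 in SLC38A1, from 8 to 15 in SLC7A1 and from 38 to 45 in SLC3A2. In SLC1A5 it ran from -97 to -90 of a start. The stretches of SLC3A2, SLC1A4, SLC1A5 and SLC38A1 lie inside the spans of their genes, whose 5′ ends are at 62856102, 64988477, 46788594 and 46270017. Which starts were used in these cells was not tested. The windows of SLC7A5, SLC38A2, SLC6A9 and SLC7A6 held no match, which says only that these letters are not in these 300 bases. Of the other genes searched, 9 of the 30 ATF4 targets outside transport and 1 of the 32 other amino acid transporters with a window held a match.

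The libraries held 12.1 to 38.4 M counts each (median 19.6 M). VIM, KRT18 and NEFL, which HEK293T cells express, were present in every library (313 to 530, 34.5 to 59.8 and 20.7 to 73.0 CPM), while the kidney marker PAX2 was at 0 in 19 libraries and reached 0.834 CPM at most. Of 10 markers of hepatocytes, blood cells and fibroblasts, TTR and SERPINA1 were at 0 in 62 libraries each, PTPRC in 60, DCN in 56 and LUM in 32. The other 5 were detected in more libraries, of which CD68, APOA1 and HBA1 were at 0 in 20, 28 and 28 and reached 0.68 CPM at most. ALB was at 0 in 2 libraries, with a median of 1.03 CPM, and COL1A1 was present in all at 0.759 to 5.93 CPM. Ibufenac bolus 18 h replicate 3 and ibufenac bolus 6 h replicate 3 stood apart from their groups, with deviations 1.93 and 1.87 times the median deviation of a library, and results that rest on them are given with and without them. Libraries also differed in how counts moved with the GC content of genes: the slope, in log2 units per 10 points of GC, averaged 0.143 in ibufenac probe at 6 h (0.068 to 0.193), -0.253 in ibuprofen probe at 6 h (-0.312 to -0.142) and 0.036 in DMSO at 6 h (-0.068 to 0.098). The members have transcripts of 40.1% (SLC38A2), 46.4% (SLC38A1), 52.1% (SLC7A3), 52.3% (SLC7A6), 53.0% (SLC1A4), 55.4% (SLC7A1), 55.5% (SLC3A2), 58.4% (SLC1A5), 60.4% (SLC7A5) and 61.3% GC (SLC6A9), against a median of 49.6% for the tested genes. Values with the GC and length trends removed are therefore given where they change a call.

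Levels between genes are compared in FPKM, a unit per length of transcript, in DMSO cells at 6 h (mean ± SD, n = 3). SLC3A2, the shared heavy chain, was the most abundant at 178 ± 15 FPKM, followed by SLC1A5 at 87.3 ± 3.6 FPKM. SLC38A2 had 63.3 ± 5.2 FPKM, SLC38A1 57.4 ± 1.5 FPKM and SLC7A5 57.0 ± 6.5 FPKM, and the libraries of these 3 neighbours in the order overlapped. Below them came SLC7A1 at 26.3 ± 0.93 FPKM, SLC7A6 at 17.6 ± 1.2 FPKM, SLC1A4 at 6.64 ± 0.71 FPKM, SLC6A9 at 3.86 ± 0.71 FPKM and SLC7A3 at 1.78 ± 0.64 FPKM, none of which overlapped its neighbour. The order by the median over all 63 libraries was the same. SLC7A3 rests on 25 to 142 counts per library and SLC6A9 on 67 to 425, so their values carry the most counting error, whereas each of the other 8 had at least 329 counts in every library.

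**Figure D1:**
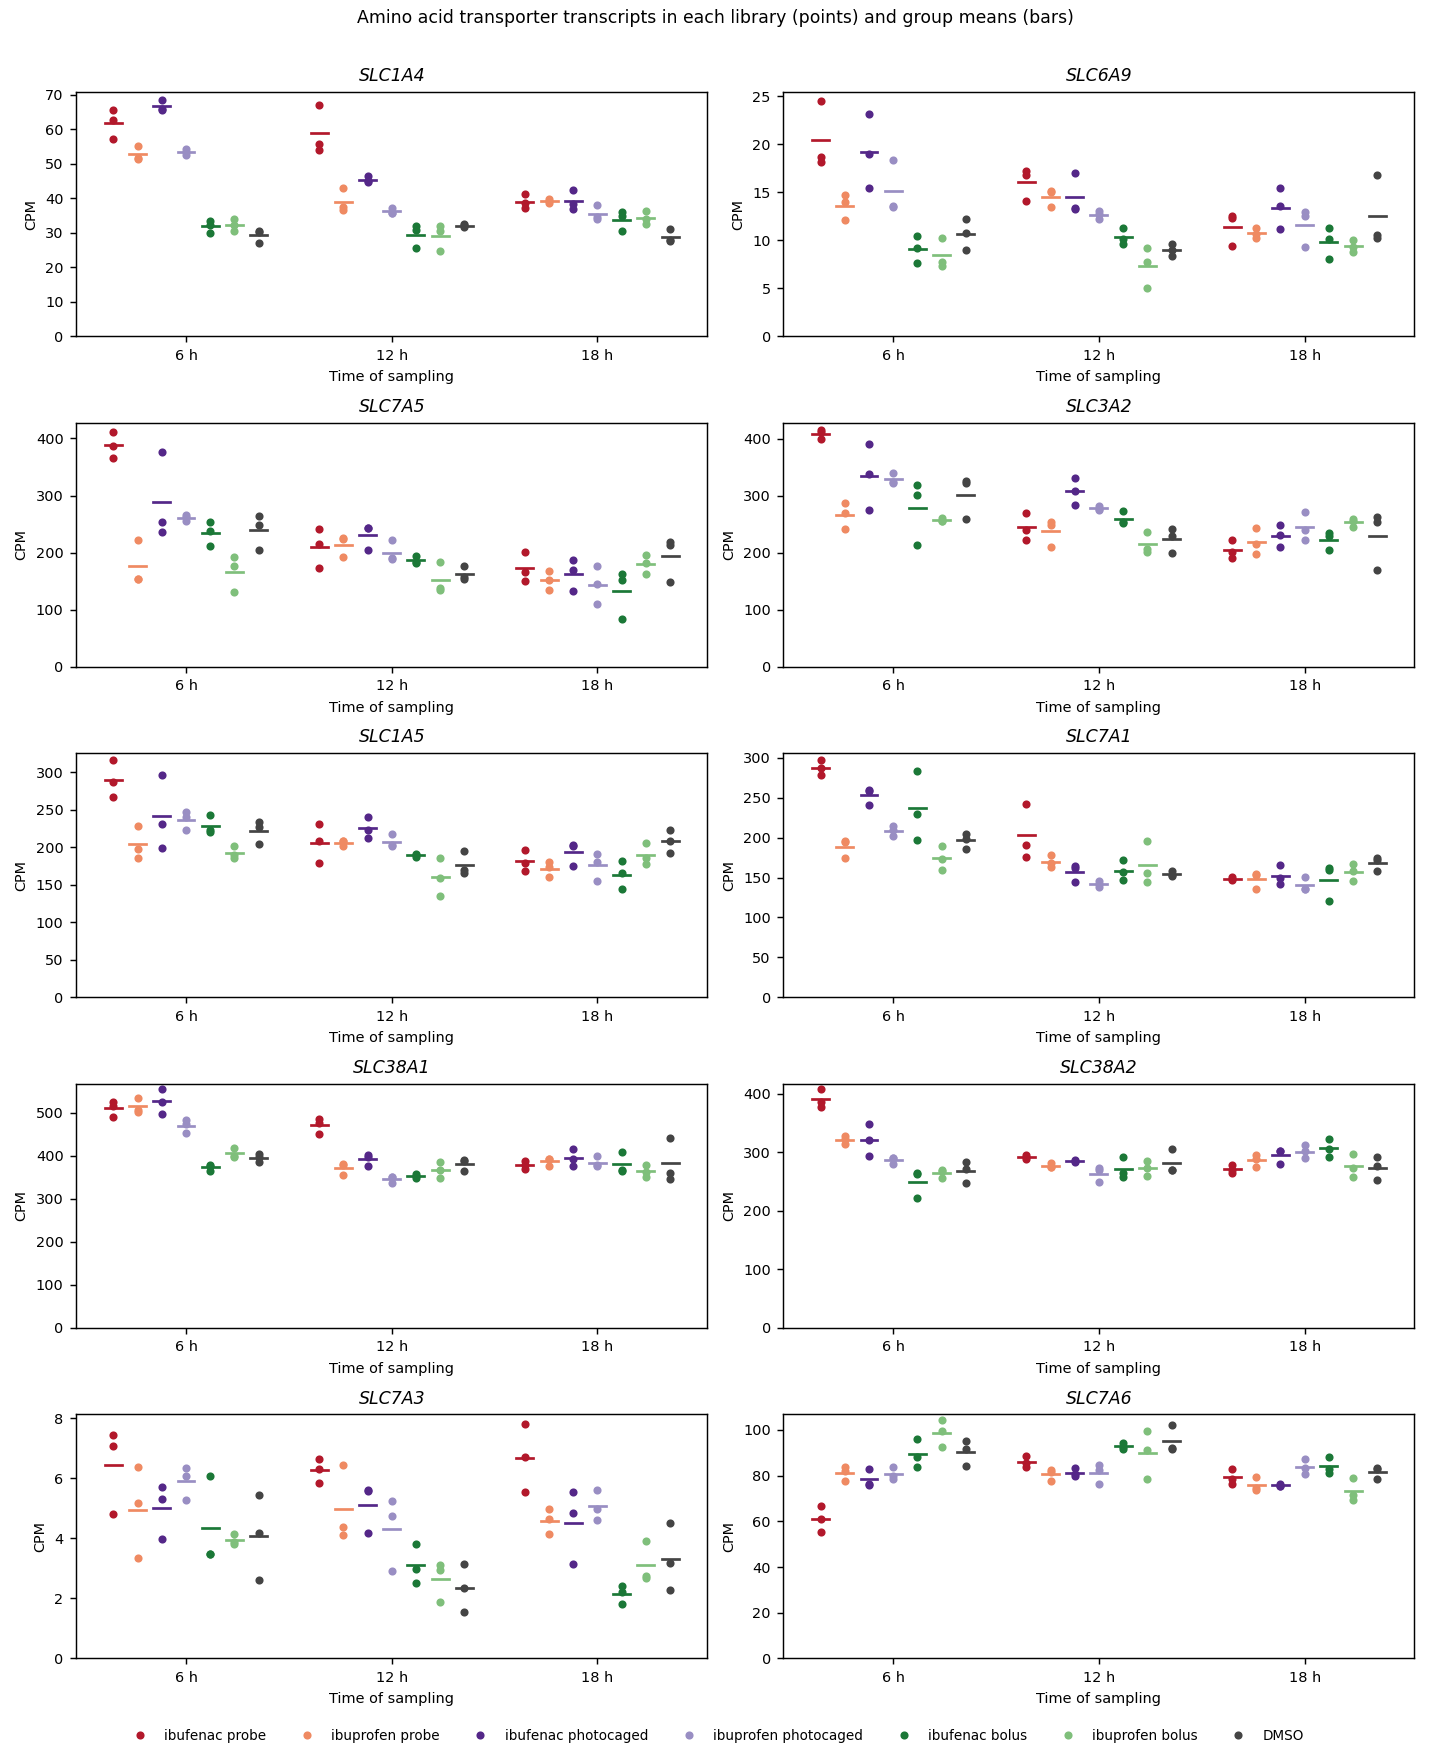
Level of each transporter transcript in CPM (y axis, from 0) in all 63 libraries, by time of sampling (x axis) and arm (colour); points are libraries and bars are means of 3. For SLC1A4 at 6 h the 12 libraries of the probe and photocaged arms sit between 51.2 and 68.5 CPM, all above the 9 bolus and DMSO libraries.

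Each arm was compared with DMSO at the same time, to ask which carriers changed with each drug and form. Changes are log2 ratios of arm over DMSO ± SE from edgeR over all 19352 tested genes, with 3 libraries per group, and a gene is called where its adjusted p is under 0.05. All 10 members passed the filter on low counts. The strongest response was that of ibufenac probe at 6 h: 8 members rose and SLC7A6 fell, so that 9 of 10 were called where 12.7% of all tested genes were (4.63% higher and 8.11% lower). SLC7A3 alone was not called there (0.66 ± 0.27, adjusted p = 0.104). It was called with the GC and length trends removed (0.76, adjusted p = 0.0485) and without DMSO 6 h replicate 1 (0.94, adjusted p = 0.0444). The median change of the members was 0.55, against -0.02 for all tested genes. In bulk RNA a change in the share of responding cells and a change in RNA per cell cannot be told apart.

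The other probe and photocaged comparisons at 6 h called fewer members. Ibufenac photocaged raised 5 of 10 (SLC1A4, SLC6A9, SLC38A1, SLC7A1 and SLC38A2), where 1.78% of tested genes rose. Ibuprofen probe raised 3 (SLC1A4, SLC38A1 and SLC38A2), where 3.61% of tested genes rose, and ibuprofen photocaged raised 2 (SLC1A4 and SLC38A1), where 0.599% rose. SLC1A4 and SLC38A1 were thus called in all 4 comparisons at 6 h. The comparisons share their DMSO libraries.

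At 12 h ibufenac probe raised 5 members (SLC7A3, SLC1A4, SLC6A9, SLC7A1 and SLC38A1, where 1.83% of tested genes rose). Ibufenac photocaged raised 4 (SLC7A3, SLC6A9, SLC1A4 and SLC3A2, where 0.475% rose). Ibuprofen probe raised SLC7A3 and SLC6A9 and lowered SLC7A6 (1.97% called, 0.362% higher and 1.61% lower), and ibuprofen photocaged called 0 members by edgeR (0.677% called). There 2413 genes reached an unadjusted p under 0.05, and DESeq2 called 1 member and 345 of all tested genes. At 18 h SLC1A4 was called in each of these 4 arms, and the other call was SLC7A3 with ibufenac probe. The shares of tested genes that rose at 18 h were 1.8% for ibufenac probe, 1.02% for ibuprofen probe, 1.66% for ibufenac photocaged and 0.992% for ibuprofen photocaged.

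**Figure D2:**
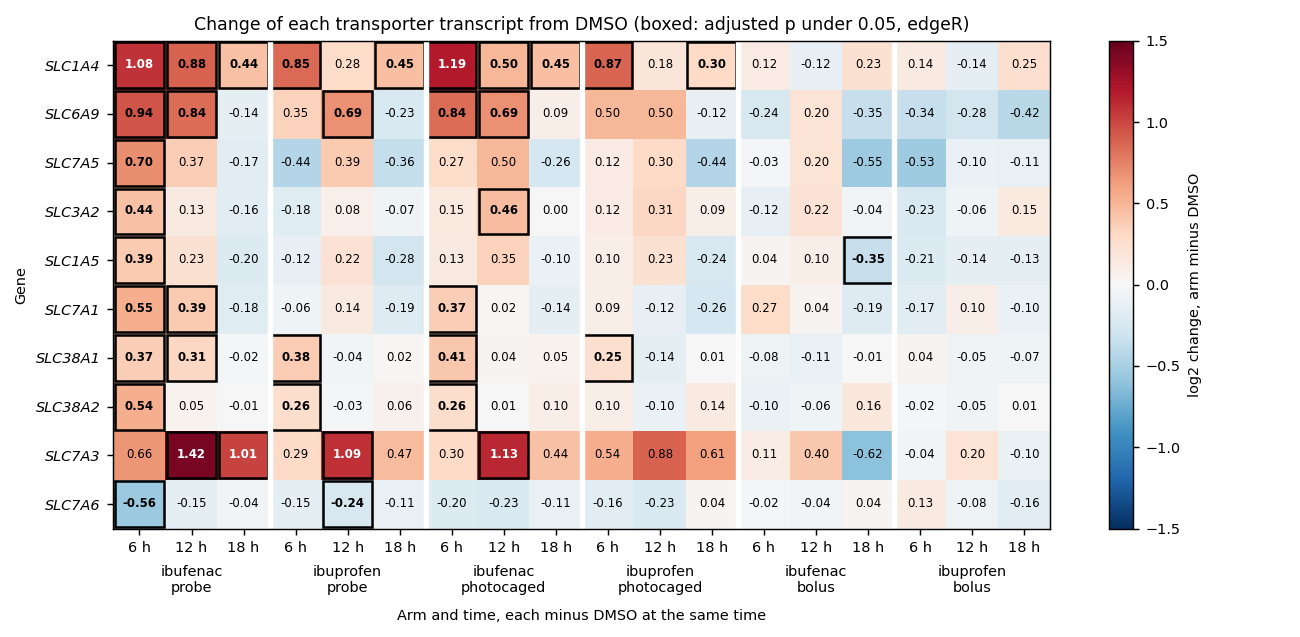
Log2 change of each transporter (rows) from DMSO in each arm and time (columns), coloured from -1.5 to 1.5; boxes mark adjusted p under 0.05 in edgeR. SLC1A4 is boxed in 10 of the 12 probe and photocaged columns, and the 6 bolus columns hold 1 box, SLC1A5 with ibufenac at 18 h.

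Among carriers of small neutral amino acids, SLC1A4 (chromosome 2, 64988477 to 65023865 on the plus strand, GRCh38) was called in 10 of the 12 comparisons of probe and photocaged arms with DMSO. At 6 h it stood at 62.6, 65.5 and 57.0 CPM with ibufenac probe, 51.2, 51.7 and 55.1 CPM with ibuprofen probe, 68.5, 65.5 and 65.7 CPM with ibufenac photocaged, 53.4, 52.5 and 54.3 CPM with ibuprofen photocaged, and 30.4, 27.0 and 30.1 CPM with DMSO. All 12 treated libraries lay above the DMSO libraries. The changes were 1.08 ± 0.09 (2.12-fold, adjusted p = 1.05e-13), 0.85 ± 0.09 (1.81-fold, adjusted p = 1.7e-09), 1.19 ± 0.09 (2.28-fold, adjusted p = 1.77e-14) and 0.87 ± 0.09 (1.83-fold, adjusted p = 9.67e-10) in the same order of arms.

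At 12 h the SLC1A4 levels of the arms lay further apart. Ibufenac probe libraries had 55.6, 54.0 and 66.9 CPM and ibufenac photocaged libraries 46.3, 45.0 and 44.6 CPM, while DMSO libraries had 31.5, 32.4 and 32.3 CPM. Ibuprofen probe libraries had 42.9, 37.3 and 36.7 CPM and ibuprofen photocaged libraries 37.1, 35.8 and 35.7 CPM, all above DMSO but not called (0.28 ± 0.09, adjusted p = 0.0686, and 0.18 ± 0.09, adjusted p = 0.384). The ibufenac changes were 0.88 ± 0.09 with probe and 0.50 ± 0.09 with photocaged (adjusted p = 4.76e-10 and 0.00035). At 18 h the changes of the 4 arms lay close together, at 0.44 ± 0.09 with ibufenac probe, 0.45 ± 0.09 with ibuprofen probe, 0.45 ± 0.09 with ibufenac photocaged and 0.30 ± 0.09 with ibuprofen photocaged (adjusted p = 0.00177, 0.00407, 0.00237 and 0.0494). The last of these was lost in 5 of 6 fits that left out a library (0.25 to 0.36) and with the GC and length trends removed (0.27, adjusted p = 0.088), without the low-count filter (0.29, adjusted p = 0.168) and in a fit of the 18 h groups alone (0.30, adjusted p = 0.0814).

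SLC38A1 (chromosome 12, 46183063 to 46270017 on the minus strand), the sodium-coupled glutamine carrier SNAT1, rose in both probe arms at 6 h. It had 517, 490 and 525 CPM with ibufenac probe and 502, 535 and 508 CPM with ibuprofen probe, against 404, 385 and 398 CPM with DMSO. Ibufenac photocaged libraries had 556, 526 and 497 CPM and ibuprofen photocaged libraries 483, 452 and 473 CPM, so that every treated library exceeded every DMSO library. The changes were 0.37 ± 0.06 and 0.38 ± 0.06 for the ibufenac and ibuprofen probes, and 0.41 ± 0.06 and 0.25 ± 0.06 for their photocaged arms (adjusted p = 6.85e-06, 3.11e-05, 4.11e-06 and 0.0221). The probe changes were 0.47 and 0.27 with the GC and length trends removed, and the drugs then differed (0.19, adjusted p = 0.00685). The ibuprofen photocaged call was lost in 5 of 6 fits that left out a library (0.23 to 0.27) and without the low-count filter (0.23, adjusted p = 0.157). At 12 h SLC38A1 was called with ibufenac probe, whose libraries had 485, 477 and 452 CPM against 365, 390 and 388 CPM in DMSO, with no overlap (0.31 ± 0.06, adjusted p = 0.000406).

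Its neighbour on the chromosome, SLC38A2 (46358189 to 46372867 on the minus strand), the adaptive carrier SNAT2, had 408, 387 and 377 CPM with ibufenac probe at 6 h, against 272, 248 and 284 CPM with DMSO. Ibuprofen probe libraries had 313, 323 and 327 CPM and ibufenac photocaged libraries 294, 348 and 322 CPM, above DMSO but below ibufenac probe. The change was 0.54 ± 0.06 (1.46-fold, adjusted p = 1.74e-08) with ibufenac probe, and 0.26 ± 0.06 with each of ibuprofen probe and ibufenac photocaged (adjusted p = 0.00676 and 0.0126). With the GC and length trends removed the ibuprofen probe change was 0.13 and was not called (adjusted p = 0.221), and without DMSO 6 h replicate 2 it was not called either (0.21). The ibufenac photocaged call was lost in 2 of 6 fits that left out a library (0.20 to 0.32) and without the low-count filter (0.26, adjusted p = 0.0651). At 12 h and 18 h SLC38A2 lay within 0.14 log2 units of DMSO in all 4 probe and photocaged arms and was not called.

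SLC6A9 (chromosome 1, 43991500 to 44031467 on the minus strand), the glycine importer GlyT1, had 18.2, 18.7 and 24.5 CPM with ibufenac probe at 6 h and 15.5, 19.0 and 23.2 CPM with ibufenac photocaged, against 8.94, 12.2 and 10.8 CPM with DMSO. These groups did not overlap, and the changes were 0.94 ± 0.18 and 0.84 ± 0.18 (adjusted p = 0.000194 and 0.00323). Ibuprofen probe libraries had 13.9, 12.1 and 14.7 CPM and overlapped DMSO (0.35 ± 0.18, adjusted p = 0.231). SLC6A9 has the highest GC content of the members, and with the trends removed the ibuprofen probe change was 0.80 and was called (adjusted p = 0.000682). The ibuprofen photocaged change, 0.50 as fitted (adjusted p = 0.229), was then 0.61 and was called (adjusted p = 0.0217). At 12 h SLC6A9 rose with ibufenac probe (0.84 ± 0.18, adjusted p = 0.00258) and was called at 0.69 ± 0.18 with both ibuprofen probe and ibufenac photocaged (adjusted p = 0.0295 and 0.0337). The last 2 calls were lost with the trends removed (0.45, adjusted p = 0.11, and 0.49, adjusted p = 0.0721), and in 5 (ibuprofen probe) and 6 (ibufenac photocaged) of the 6 fits that left out a library. CCDC24, which overlaps SLC6A9 on the other strand with 20.3% of its median count, changed by -0.03 ± 0.39 with ibufenac probe at 6 h (adjusted p = 0.979). The counting strand is not given in the sources used here, so reads of overlapping genes on opposite strands may not have been told apart, and values of SLC1A5, SLC6A9 and SLC7A6 are uncertain to that extent.

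The exchanger pair SLC7A5 and SLC3A2 rose at 6 h with ibufenac probe, the arm in which both were called. SLC7A5 (chromosome 16, 87830023 to 87869488 on the minus strand) had 366, 387 and 411 CPM with ibufenac probe, 154, 154 and 222 CPM with ibuprofen probe, and 205, 248 and 264 CPM with DMSO. The ibufenac probe libraries lay above all DMSO libraries, whereas the ibuprofen probe libraries were low and overlapped DMSO. The changes were 0.70 ± 0.18 (1.62-fold, adjusted p = 0.00541) with ibufenac probe and -0.44 ± 0.18 (adjusted p = 0.105) with ibuprofen probe, the opposite sign. With the GC and length trends removed they were 0.67 and -0.06, so that the ibuprofen value lay near 0. Without the low-count filter the ibuprofen probe change was much the same as fitted, at -0.45. Its SE was 0.08 there in place of 0.18, and it was called (adjusted p = 2.85e-06). Ibufenac photocaged libraries were spread widely, at 236, 254 and 376 CPM (0.27 ± 0.18, adjusted p = 0.526). Their GC slopes also ran from -0.204 to 0.152, and with the trends removed SLC7A5 was called there at 0.38 (adjusted p = 0.00966).

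SLC3A2 (chromosome 11, 62856102 to 62888875 on the plus strand), the heavy chain of CD98, had 416, 411 and 400 CPM with ibufenac probe at 6 h, against 259, 325 and 321 CPM with DMSO, with no overlap (0.44 ± 0.12, 1.35-fold, adjusted p = 0.00943). The call was lost without DMSO 6 h replicate 1 (0.36). At 12 h SLC3A2 rose with ibufenac photocaged, where libraries had 332, 309 and 284 CPM against 242, 199 and 230 CPM in DMSO (0.46 ± 0.12, adjusted p = 0.0298), a call lost in 4 of 6 fits that left out a library (0.38 to 0.52). With ibufenac probe at 12 h it was back at 240, 222 and 270 CPM (0.13 ± 0.12, adjusted p = 0.678).

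The glutamine exchanger SLC1A5 (chromosome 19, 46774883 to 46788594 on the minus strand) was called in the same arm. It had 267, 287 and 316 CPM with ibufenac probe at 6 h, against 204, 234 and 227 CPM with DMSO, with no overlap (0.39 ± 0.10, 1.31-fold, adjusted p = 0.00838). That call was lost without ibufenac probe 6 h replicate 3 (0.32). With ibuprofen probe SLC1A5 had 197, 186 and 228 CPM, which overlapped DMSO (-0.12 ± 0.10, adjusted p = 0.535).

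Among cationic carriers, SLC7A1 (chromosome 13, 29509410 to 29595688 on the minus strand), the main arginine importer of many cells, rose with both forms of ibufenac at 6 h. It had 287, 297 and 279 CPM with ibufenac probe and 241, 260 and 259 CPM with ibufenac photocaged, against 186, 199 and 205 CPM with DMSO. Ibuprofen probe libraries had 175, 196 and 194 CPM, at the level of DMSO (-0.06 ± 0.10, adjusted p = 0.777). The ibufenac changes were 0.55 ± 0.10 with probe and 0.37 ± 0.10 with photocaged (adjusted p = 1e-04 and 0.0303). The photocaged call was lost in all 6 fits that left out a library, with changes between 0.34 and 0.40. At 12 h SLC7A1 remained higher with ibufenac probe (0.39 ± 0.10, adjusted p = 0.0134), a call lost in 3 of 6 such fits (0.24 to 0.47), the lowest without ibufenac probe 12 h replicate 1.

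SLC7A3 (chromosome X, 70925582 to 70931125 on the minus strand), the scarcest member, was called at 12 h and 18 h. At 12 h it had 5.84, 6.64 and 6.30 CPM with ibufenac probe, 4.10, 4.39 and 6.44 CPM with ibuprofen probe and 4.17, 5.61 and 5.58 CPM with ibufenac photocaged, against 2.34, 1.54 and 3.15 CPM with DMSO. None of these groups overlapped DMSO, and the changes were 1.42 ± 0.28 (2.67-fold, adjusted p = 0.000772), 1.09 ± 0.28 (adjusted p = 0.0253) and 1.13 ± 0.28 (adjusted p = 0.0228). At 18 h ibufenac probe libraries still had 6.72, 7.81 and 5.54 CPM against 2.28, 3.16 and 4.50 CPM in DMSO (1.01 ± 0.28, adjusted p = 0.0333). DMSO itself had 5.45, 2.62 and 4.17 CPM at 6 h, and the ibufenac probe libraries then overlapped it, at 4.79, 7.06 and 7.43 CPM. Of the 4 calls, the ibufenac probe call at 12 h held without each library in turn (1.19 to 1.68), and each of the other 3 was lost in 4 of 6 fits (0.80 to 1.39 over the 3).

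SLC7A6 (chromosome 16, 68264516 to 68301823 on the plus strand) was the member that fell. At 6 h ibufenac probe libraries had 66.9, 55.4 and 61.1 CPM, below all 3 DMSO libraries at 91.5, 95.3 and 84.1 CPM (-0.56 ± 0.07, 0.678-fold, adjusted p = 3.49e-08). In the other 3 arms at 6 h the libraries also lay below DMSO but were not called: the changes were -0.15 ± 0.07 with ibuprofen probe, -0.20 ± 0.07 with ibufenac photocaged and -0.16 ± 0.07 with ibuprofen photocaged (adjusted p = 0.138, 0.0917 and 0.341). The ibufenac photocaged change was -0.22 with the GC and length trends removed and was called (adjusted p = 0.0185). At 12 h SLC7A6 was called with ibuprofen probe at -0.24 ± 0.07 (adjusted p = 0.0471), a call lost in all 6 fits that left out a library (-0.27 to -0.21). SLC7A6OS, which overlaps SLC7A6 on the other strand with 43.6% of its median count, changed by 0.10 ± 0.08 with ibufenac probe at 6 h and was not called (adjusted p = 0.494).

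The bolus arms were set against DMSO in the same way. For ibufenac bolus, 0 members were called at 6 h and 12 h (0.0258% and 0.0% of tested genes called) and SLC1A5 was called lower at 18 h (-0.35 ± 0.10, adjusted p = 0.0428, where 2.71% of tested genes were lower). Ibufenac bolus libraries at 18 h had 165, 181 and 144 CPM of SLC1A5, against 208, 223 and 192 CPM with DMSO. The lowest value is that of replicate 3, which stands apart, and without both such libraries the change was -0.25 and was not called (adjusted p = 0.33). With the GC and length trends removed it was -0.12 (adjusted p = 0.253). Ibuprofen bolus called 0 members at 6 h, 12 h and 18 h (0.0%, 0.0103% and 0.0723% of tested genes called). In these 5 comparisons with no member called by edgeR, 695 to 2134 genes reached an unadjusted p under 0.05, and 0 members were called by DESeq2.

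SLC1A4, the member called in most arms, changed by 0.12 ± 0.09 with ibufenac bolus and 0.14 ± 0.09 with ibuprofen bolus at 6 h (adjusted p = 0.656 and 0.573). At 18 h the values were 0.23 ± 0.09 and 0.25 ± 0.09 (adjusted p = 0.0965 and 0.312), with ibuprofen bolus libraries at 36.3, 32.4 and 34.0 CPM and DMSO libraries at 27.9, 30.9 and 27.5 CPM. Over the 6 bolus comparisons, the members' changes ran from -0.62 (SLC7A3, ibufenac at 18 h) to 0.40 (SLC7A3, ibufenac at 12 h). SLC7A5 changed by -0.55 with ibufenac bolus at 18 h and -0.53 with ibuprofen bolus at 6 h, neither called as fitted. DESeq2 called the former (-0.54, adjusted p = 0.034), and edgeR without the low-count filter called both (-0.55 each, adjusted p = 6.7e-09 and 1.16e-08). With the GC and length trends removed both were -0.25 and not called (adjusted p = 0.166 and 0.535).

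The drugs differ by the α-methyl group. Their libraries were set against each other, ibufenac minus ibuprofen, for every form at every time, which gives 9 pairs and 90 tests of members. The precursor dose of 10 µM is the same for both drugs by the study's design, while the bolus doses are not stated. For the probe at 6 h, 7 members were higher and SLC7A6 was lower with ibufenac, where 23.6% of tested genes were called (12.9% higher and 10.7% lower). SLC7A5 differed most, by 1.14 ± 0.18 (2.20-fold, 95% interval 0.77 to 1.5, adjusted p = 1.43e-05). Next came SLC3A2 at 0.62 ± 0.12 and SLC7A1 at 0.61 ± 0.10 (adjusted p = 0.000136 and 2.36e-05), SLC6A9 at 0.59 ± 0.18 and SLC1A5 at 0.51 ± 0.10 (adjusted p = 0.0119 and 0.000295). Smaller differences were called for SLC38A2 at 0.28 ± 0.06 and SLC1A4 at 0.23 ± 0.08 (adjusted p = 9e-04 and 0.0417). SLC7A6 differed by -0.41 ± 0.07 (adjusted p = 3.07e-05), and SLC38A1 by -0.01 (95% interval -0.13 to 0.10).

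GC content moved with this comparison, since the 2 probe arms had slopes of opposite sign. With the GC and length trends removed, 2545 genes in place of 4573 were called between the probes. SLC7A5 was then higher by 0.73, SLC7A1 by 0.58, SLC3A2 by 0.49, SLC38A2 by 0.46, SLC1A4 by 0.31 and SLC1A5 by 0.19, all still called, and SLC7A6 was lower at -0.31. SLC6A9 was no longer called (0.01, adjusted p = 0.98), and SLC38A1 was called higher (0.19, adjusted p = 0.00685). The SLC1A4 difference was lost in 4 of 6 fits that left out a library (0.18 to 0.28) and without the low-count filter (0.26, adjusted p = 0.13).

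**Figure D3:**
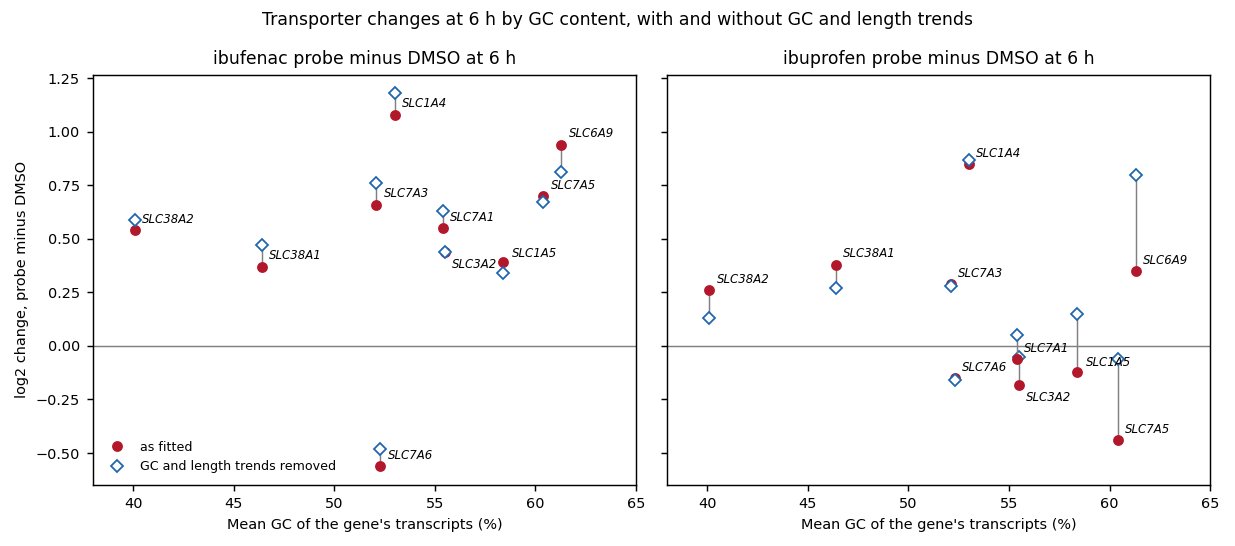
Log2 change of each transporter at 6 h (y axis) against the mean GC content of its transcripts (x axis, percent), for ibufenac probe and ibuprofen probe minus DMSO, as fitted (filled circles) and with GC and length trends removed (open diamonds). For ibufenac probe the paired marks lie close together, whereas for ibuprofen probe SLC6A9 lies at 0.80 with the trends removed and 0.35 as fitted, and SLC7A5 at -0.06 and -0.44.

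At 12 h the probe pair differed for SLC1A4 (0.60 ± 0.08, 95% interval 0.42 to 0.77, adjusted p = 3.53e-05) and SLC38A1 (0.34 ± 0.06, 95% interval 0.23 to 0.46, adjusted p = 0.000576), where 0.858% of tested genes were higher. Both held without each library in turn. SLC7A1 was called as well with the GC and length trends removed (0.32, adjusted p = 0.0121). At 18 h 0 members were called for the probe pair by either tool (0.0% of tested genes in edgeR, 1065 genes with an unadjusted p under 0.05), and the intervals allow differences of -0.18 to 0.16 for SLC1A4, -0.15 to 0.08 for SLC38A1, -0.17 to 0.55 for SLC7A5 and -0.21 to 0.05 for SLC38A2. For the photocaged pair 0 members and 0.0% of tested genes were called at each time by edgeR. An unadjusted p under 0.05 was reached by 935 genes at 6 h, 583 at 12 h and 577 at 18 h, and the DESeq2 fit called 6, 1 and 2 genes at those times. That does not show that the 2 photocaged drugs acted alike: SLC1A4 was higher with ibufenac by 0.32 at 6 h (95% interval 0.15 to 0.49, adjusted p = 0.336) and by 0.32 at 12 h (0.15 to 0.50, adjusted p = 0.845), and in both cases the 3 ibufenac libraries lay above the 3 ibuprofen libraries. For SLC7A5 the photocaged difference at 6 h was 0.15 (95% interval -0.21 to 0.51).

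For the bolus pair SLC7A1 was called at 6 h, where 1.0% of tested genes were higher (0.44 ± 0.10, 95% interval 0.24 to 0.64, adjusted p = 0.0241). Ibufenac bolus libraries had 197, 229 and 283 CPM and ibuprofen bolus libraries 160, 173 and 190 CPM. The highest value is that of replicate 3, which stands apart, and without both such libraries the difference was 0.29 and was not called (adjusted p = 0.0795). At 12 h and 18 h 0 members were called for the bolus pair (0.0362% and 0.0% of tested genes called), where 1851 and 2502 genes reached an unadjusted p under 0.05, and by DESeq2 0 members were called as well.

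**Figure D4:**
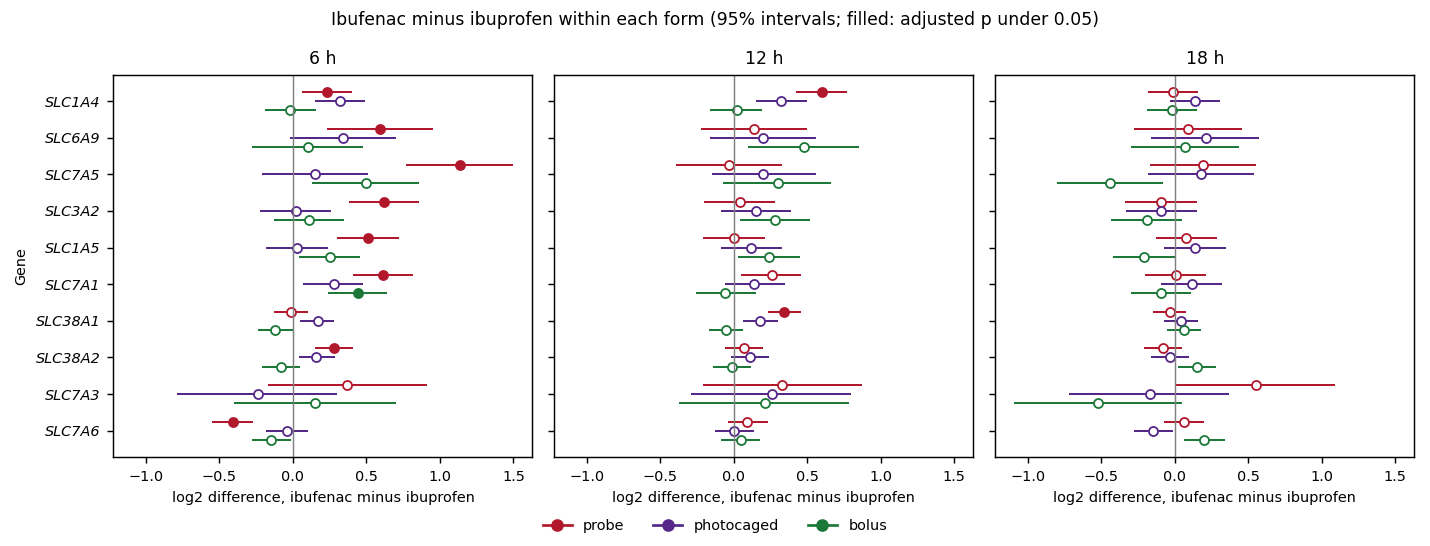
Log2 difference of ibufenac minus ibuprofen (x axis) for each transporter (y axis) in the probe, photocaged and bolus arms at 6 h, 12 h and 18 h, with 95% intervals; filled points have adjusted p under 0.05. At 6 h the filled probe points of 7 members lie right of 0 and that of SLC7A6 left of it, and at 18 h no point is filled.

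The forms were compared within each drug at 6 h. Ibufenac probe exceeded ibufenac photocaged for SLC38A2 (0.28 ± 0.06, adjusted p = 0.00401) and lay below it for SLC7A6 (-0.36 ± 0.07, adjusted p = 0.000643), where 7.38% of tested genes were called (2.53% higher and 4.85% lower). The SLC38A2 call was lost without ibufenac photocaged 6 h replicate 1 (0.22), and without replicate 3 of that group 5 members were called. Over all tested genes, fits that left out a library called 374 to 2586 here, against 1428 with all libraries. Ibuprofen probe and photocaged differed for 0 members by edgeR (0.119% of tested genes called), where 3053 genes reached an unadjusted p under 0.05 and 0 members were called by DESeq2.

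To test whether the responses changed with time, the change from DMSO at 18 h was compared with that at 6 h in the same fit. For ibufenac probe 9 members differed, where 7.98% of tested genes did (5.33% with a positive and 2.65% with a negative difference). SLC6A9 differed most, by -1.08 ± 0.26, followed by SLC7A5 at -0.87 ± 0.25, SLC7A1 at -0.73 ± 0.14 and SLC1A4 at -0.64 ± 0.12 (adjusted p = 0.00464, 0.024, 0.000492 and 0.000292). SLC7A6 moved the other way, by 0.52 ± 0.10 (adjusted p = 0.000245). For ibufenac photocaged 2 members differed (0.284% of tested genes had a negative difference): SLC1A4 by -0.75 ± 0.12 and SLC38A1 by -0.37 ± 0.08 (adjusted p = 0.000331 and 0.0178). For ibuprofen photocaged SLC1A4 differed by -0.57 ± 0.12 (adjusted p = 0.041; 0.0465% of tested genes with a negative difference), a call lost in 8 of 12 fits that left out a library (-0.62 to -0.51). Of the ibufenac calls, that of SLC7A5 was lost in 6 of 12 such fits (-1.02 to -0.77), that of SLC3A2 (-0.60 ± 0.17) in 4 of 12 (-0.77 to -0.49) and that of SLC38A1 with ibufenac photocaged in 5 of 12 (-0.43 to -0.25). For ibuprofen probe 0 members differed by edgeR (0.0362% of tested genes called, 1470 genes with an unadjusted p under 0.05). DESeq2 called 1 member there and 28 of all tested genes.

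Further members were called with the GC and length trends removed that were not called as fitted. With ibufenac probe at 12 h these were SLC7A5 (0.45, adjusted p = 0.00155) and SLC1A5 (0.26, adjusted p = 0.000829), and with ibufenac photocaged at 6 h SLC1A5 (0.20, adjusted p = 0.0192). With ibufenac photocaged at 12 h they were SLC7A5 (0.37, adjusted p = 0.0211), SLC1A5 (0.24, adjusted p = 0.00579) and SLC7A6 (-0.21, adjusted p = 0.0402). Ibufenac probe then exceeded ibufenac photocaged at 6 h for SLC7A5 (0.29, adjusted p = 0.0466). Between 18 h and 6 h, SLC7A1 was called with ibufenac photocaged (-0.51, adjusted p = 0.00753), and SLC38A1 with ibuprofen probe (-0.34, adjusted p = 0.0355) and ibuprofen photocaged (-0.32, adjusted p = 0.0468).

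The differences between 18 h and 6 h include the course of the DMSO cells themselves. Between 18 h and 6 h in DMSO, SLC3A2 was lower by -0.40 ± 0.12 (adjusted p = 0.0142), where 10.0% of tested genes were lower. DMSO 18 h libraries had 262, 255 and 170 CPM of SLC3A2 and DMSO 6 h libraries 259, 325 and 321 CPM, so the groups overlapped, and without DMSO 18 h replicate 3 the change was -0.23 and was not called. That library also had the lowest SLC7A5 of its group, with 149 CPM against 214 and 219 CPM in the other two, and the highest SLC6A9, with 16.9 CPM against 10.6 and 10.2 CPM. With the GC and length trends removed 5 members were called in DMSO, in a fit that called 4009 of the 19352 tested genes: SLC7A5 at -0.53, SLC3A2 at -0.44, SLC7A1 at -0.34, SLC1A5 at -0.20 and SLC7A6 at -0.19. DMSO slopes averaged 0.155 at 18 h and 0.036 at 6 h.

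Other genes of amino acid supply were read from 3 written lists. Of 37 ATF4 targets outside transport, 32 rose and 0 fell with ibufenac probe at 6 h (median change 0.67), 18 rose and 1 fell with ibuprofen probe (0.31), 18 rose and 0 fell with ibufenac photocaged (0.48), and 14 rose and 0 fell with ibuprofen photocaged (0.27). The shares of all tested genes that rose in these comparisons were 4.63%, 3.61%, 1.78% and 0.599%. CHAC1, which degrades glutathione, rose by 2.24 ± 0.24 with ibufenac probe at 6 h, NUPR1, a stress-induced chromatin protein, by 2.01 ± 0.28, TRIB3, a pseudokinase that restrains ATF4 signalling, by 1.82 ± 0.09, and GDF15, a secreted stress hormone, by 1.78 ± 0.28 (adjusted p = 1.68e-09, 5.75e-07, 1.56e-20 and 7.91e-06). With ibuprofen probe the same genes changed by 0.47 ± 0.24, 1.06 ± 0.28, 0.36 ± 0.09 and -0.04 ± 0.30, of which NUPR1 and TRIB3 were called. ASNS, which makes asparagine, rose in all 4 arms at 6 h, by 1.24 ± 0.07 with ibufenac probe, 0.91 ± 0.07 with ibuprofen probe, 0.91 ± 0.07 with ibufenac photocaged and 0.77 ± 0.07 with ibuprofen photocaged. At 18 h with ibufenac probe 2 of the 37 were higher and 3 lower (median 0.02). There 521 of all 19352 tested genes were called, of which 349 were higher (1.8% of tested genes) and the rest lower.

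The other amino acid transporters moved in both directions. Of 40 listed, 22 passed the filter on low counts, and with ibufenac probe at 6 h 3 of them rose and 7 fell (median -0.23), where 4.63% of all tested genes rose and 8.11% fell. SLC7A11, the cystine importer that works with SLC3A2, rose by 1.24 ± 0.10 with ibufenac probe, 0.96 ± 0.10 with ibuprofen probe, 1.18 ± 0.10 with ibufenac photocaged and 0.77 ± 0.10 with ibuprofen photocaged (adjusted p = 6.14e-14, 1.7e-09, 6.71e-13 and 4.96e-07). The glutamate importer SLC1A3 changed by -0.86 ± 0.12 with ibufenac probe, the neutral exchanger SLC7A8 by -0.85 ± 0.28 and the proton-coupled carrier SLC36A1 by -0.67 ± 0.14 (adjusted p = 1.53e-06, 0.0321 and 0.000496). In the other 3 arms at 6 h 1 of the 22 was higher and 1 lower in each. Of all 19352 tested genes, 2213 were called with ibuprofen probe, of which 699 were higher (3.61% of tested genes, which is near 1 of 22) and the rest lower. With ibufenac photocaged 587 were called, of which 344 were higher (1.78%) and the rest lower. With ibuprofen photocaged 192 were called, of which 116 were higher (0.599%) and the rest lower. Of 39 tested genes of amino acid sensing and mTORC1, 4 rose and 2 fell with ibufenac probe at 6 h (median 0.00), which is near the 12.7% of all tested genes that were called. IMPACT, an inhibitor of the amino acid sensor GCN2, rose by 0.55 ± 0.08 and EIF2AK3, the eIF2α kinase PERK, by 0.47 ± 0.11, while LAMTOR5, a Ragulator subunit, changed by -0.51 ± 0.09 and SESN3, a sestrin, by -0.45 ± 0.11 (adjusted p = 2.99e-06, 0.00204, 0.000112 and 0.00277).

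The genes most alike in pattern to each member were found by Pearson's r over the 21 group means of log2 CPM among 14505 genes. The points share libraries, depth and GC trends, so r is a description. SLC1A4 was most like ASNS (r = 0.96), PSAT1 of serine synthesis (0.94) and EPRS1, a tRNA synthetase (0.93). SLC38A1 was most like SLC7A11 (0.97), the tRNA exporter XPOT (0.96) and COG3 (0.95), and SLC6A9 most like SHMT2 (0.88), which makes glycine from serine, PHGDH of serine synthesis (0.87) and PCK2 (0.87). Genes alike to SLC7A5 included ARF1 (0.95) and PYGB, a glycogen phosphorylase (0.93). SLC1A5 was most like the alanine transaminase GPT2 (0.94), SLC3A2 most like SQSTM1 (0.92) and SLC7A1 most like the chaperone HSPA5 (0.94). SLC7A3 was most like EIF4EBP1 (0.85), SLC38A2 most like NBR1 (0.88) and SLC7A6 most like DYRK2 (0.89).

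By the same measure, the members differed in how alike they were. SLC7A5 and SLC1A5 were closest (r = 0.96), followed by SLC3A2 with SLC1A5 (0.89) and with SLC7A5 (0.87), and SLC1A4 lay close to SLC38A1 (0.87) and SLC6A9 (0.86) but further from SLC7A5 (0.58). SLC38A2 and SLC7A5 had r = 0.39. SLC7A6 ran against all the others, with r of -0.69 (SLC38A2) to -0.30 (SLC7A1). The ratio of the highest to the lowest group mean in CPM was 3.12 for SLC7A3, 2.93 for SLC7A5, 2.80 for SLC6A9, 2.32 for SLC1A4, 2.05 for SLC7A1, 2.00 for SLC3A2, 1.81 for SLC1A5, 1.62 for SLC7A6, 1.56 for SLC38A2 and 1.52 for SLC38A1. Ibufenac probe at 6 h was the highest group for 6 of the 10 (SLC7A5, SLC3A2, SLC1A5, SLC7A1, SLC38A2 and SLC6A9) and the lowest for SLC7A6. Of the pseudogene copies of SLC7A5, SLC7A5P1 had a median of 16 counts, 0.427% of that of SLC7A5, and SLC7A5P2 a median of 0.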

How the data were processed

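RNA-seq of total RNA, depleted of ribosomal RNA with Ribo-Zero and made into stranded TruSeq libraries per the labels' protocols, was deposited for 63 libraries as 2 tables of 58336 genes. One holds expected counts estimated by the authors, with 22.6% of values at or above 1 not whole, and the other holds the authors' FPKM values. Which aligner, genome build and counting strand were used is not given in the sources used here. Identifiers were matched to current symbols (57754) or GENCODE 29 names (462 more). The table holds no row that is not a gene, and no library pair within a group agreed within sampling noise.

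Expected counts were rounded and tested with edgeR 4.0.16 (R 4.3.3): filterByExpr with a minimum count of 10 kept 19352 genes, TMM factors ran from 0.91 to 1.11, and 1 quasi-likelihood model over the 21 groups had 42 residual degrees of freedom. The 34 comparisons were two-sided, with Benjamini-Hochberg adjustment over all tested genes within each, at 0.05. Intervals are 95%. CPM values use TMM library sizes, and FPKM served only for levels between genes. Alternatives were DESeq2 1.42.0, RLE size factors, a replicate block, testing without the low-count filter, the groups of each time alone, and leaving out each library, with the dispersion trend held. Leaving out 2 libraries that stand apart, and GC and length offsets, are alternatives chosen after seeing the data. The steps were tested on simulated data. All members are named, with up to 3 genes most alike in pattern and up to 4 called genes with the largest change in ibufenac probe at 6 h from each list, and ASNS, TRIB3 and SLC7A11 always. The members and lists were chosen with earlier results of these data known. Several spellings of the motif were tried.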

Additional observations from a re-analysis of the deposited data

Results flagged for a closer look

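The results given here are those in which the change from DMSO differed between 18 h and 6 h by the test of that difference in edgeR, as log2 change at 18 h minus log2 change at 6 h ± SE, over 3 libraries per group. With ibufenac probe the carriers of large neutral amino acids and glutamine differed by -0.87 ± 0.25 (SLC7A5, adjusted p = 0.024), -0.60 ± 0.17 (SLC3A2, adjusted p = 0.0189) and -0.58 ± 0.15 (SLC1A5, adjusted p = 0.00763). The carriers of small neutral amino acids differed by -0.64 ± 0.12 (SLC1A4, adjusted p = 0.000292), -0.38 ± 0.08 (SLC38A1, adjusted p = 0.00143), -0.56 ± 0.09 (SLC38A2, adjusted p = 3.02e-05) and -1.08 ± 0.26 (SLC6A9, adjusted p = 0.00464). The arginine importer SLC7A1 differed by -0.73 ± 0.14 (adjusted p = 0.000492), and SLC7A6, which was lower than DMSO at 6 h, by 0.52 ± 0.10 (adjusted p = 0.000245).

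With ibufenac photocaged SLC1A4 differed by -0.75 ± 0.12 (adjusted p = 0.000331) and SLC38A1 by -0.37 ± 0.08 (adjusted p = 0.0178). With ibuprofen photocaged SLC1A4 differed by -0.57 ± 0.12 (adjusted p = 0.041). These tests share the DMSO libraries, and with 3 libraries per group no library could be tested for standing apart by its gap to the others.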

How the results depend on the processing

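Of 340 member tests in 34 comparisons 63 were called, and 38 of the 63 held without each library in turn. RLE size factors changed no call. Of the 63 calls, the replicate block lost 2, the low-count filter's removal 7, and the GC and length correction 6, while the fits of each time alone lost 5 of 50. DESeq2 lost none of the 61 for which it gave an adjusted p. The causes were not tested.

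In members called, the fit without the low-count filter gave 3 (1 as reported) for ibuprofen probe at 18 h, 2 (1) for ibufenac photocaged at 18 h, 1 (2), 2 (0) and 2 (1) for ibuprofen photocaged at 6 h, 12 h and 18 h, 2 (1) for ibufenac bolus at 18 h and 1 (0) for ibuprofen bolus at 6 h. Over all genes it called 1247 (344 as reported) for ibuprofen probe and 1343 (553) for ibufenac photocaged at 18 h. For ibuprofen photocaged it called 343 (192), 664 (131) and 1375 (428) genes at 6 h, 12 h and 18 h. For ibufenac bolus at 18 h it called 1710 (973) genes, and for ibuprofen bolus at 6 h 977 (0). That fit gave 3 (1), 2 (0) and 1 (0) members for the bolus pair at 6 h, 12 h and 18 h, 5 (2) and 2 (0) for probe minus photocaged with ibufenac and ibuprofen, and 2 (1) for DMSO between 18 h and 6 h. The genes called were 1347 (446), 585 (7) and 1124 (0) for the bolus pair. They were 1831 (1428) and 1098 (23) for probe minus photocaged, and 2841 (3377) for DMSO. DESeq2 gave 1 (0) for ibuprofen photocaged at 12 h, 2 (1) for ibufenac bolus at 18 h, and 1 (0) and 0 (1) for the change between 18 h and 6 h with ibuprofen probe and photocaged. Its calls over all genes were 345 (131), 1678 (973), 28 (7) and 75 (11) in the same order. The 0 for ibuprofen photocaged reflects a missing value: SLC1A4, the member edgeR called there, had no adjusted p in DESeq2. The fits of each time alone gave 1 (2) and 0 (1) for ibuprofen photocaged at 6 h and 18 h and 0 (1) for the bolus pair at 6 h. Their calls over all genes were 24 (192), 140 (428) and 3 (446).

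With GC and length trends removed the counts were 8 (5) for ibufenac photocaged at 6 h, 0 (1) for ibuprofen photocaged and for ibufenac bolus at 18 h, 5 (1) for DMSO between 18 h and 6 h, and 1 (0) and 2 (1) for the change between those times with ibuprofen probe and photocaged. Over all genes that fit called 908 (587), 424 (428), 316 (973), 4009 (3377), 14 (7) and 30 (11) in the same order. SLC38A1 between the probes at 6 h turned to 0.19 in that fit, against -0.01 as reported. Without the 2 libraries that stand apart, ibufenac bolus at 18 h and the bolus pair at 6 h called 0 members (1 each), and 86 (973) and 411 (446) genes.

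Replicate numbers did not pair the samples: same-numbered libraries had a median correlation of deviations of 0.001 (-0.68 to 0.77), and 25 of 63 libraries correlated best with their own number. The replicate block called 0 members (1 as reported) for ibuprofen photocaged at 18 h (SLC1A4, 0.30, adjusted p = 0.0525) and lost SLC7A6 with ibuprofen probe at 12 h (-0.24, adjusted p = 0.053).

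Leaving out each library gave 8 to 9, 4 to 5 and 1 to 2 members for ibufenac probe at 6 h, 12 h and 18 h, 2 to 4 and 0 to 2 for ibuprofen probe at 6 h and 12 h, 3 to 4 and 1 to 2 for ibufenac photocaged at 6 h and 12 h, and 1 to 2 and 0 to 1 for ibuprofen photocaged at 6 h and 18 h. The genes called were 1515 to 2262, 475 to 685 and 227 to 548 for ibufenac probe, and 447 to 2508 and 72 to 340 for ibuprofen probe. They were 250 to 852 and 71 to 207 for ibufenac photocaged, and 40 to 102 and 50 to 458 for ibuprofen photocaged. Such fits gave 0 to 3 members for ibufenac bolus at 18 h, 6 to 8 for the probe pair and 0 to 1 for the bolus pair at 6 h, and 1 to 5 and 0 to 1 for probe minus photocaged with ibufenac and ibuprofen. The genes called were 57 to 1782, 3217 to 4521, 5 to 816, 374 to 2586 and 1 to 386 in the same order. Between 18 h and 6 h they gave 7 to 9 and 0 to 1 members with ibufenac and ibuprofen probe, 1 to 2 and 0 to 1 with ibufenac and ibuprofen photocaged, and 0 to 1 in DMSO. The genes called there were 962 to 1656, 2 to 17, 41 to 131, 6 to 35 and 2501 to 3122.

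Of all tested genes, leaving out a library called 447 to 2508 for ibuprofen probe at 6 h (2213 as reported) and 57 to 1782 for ibufenac bolus at 18 h (973), the lowest without replicate 3. Depth limits SLC7A3 most, whose lowest count was 25.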
